A study of Rattus norvegicus with 9 samples.

Results

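Scavenger and lipoprotein receptors bring lipid into macrophages, and their messenger RNA was followed here in rat alveolar macrophages after nitrogen mustard. The set holds 9 genes chosen by symbol: Cd36, Msr1, Olr1, Scarb1, Scarb2, Cd68, Vldlr, Lrp1 and Lpl. All 9 had a row among the 17109 genes measured, each with a single RefSeq transcript row, so no isoforms had to be added up. The choice of genes used no measured value, but it was made with earlier results of these data known.

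The cells, which were released by gentle massage, came from male Wistar rats that received a single kind of intratracheal instillation, either nitrogen mustard (NM), given as mechlorethamine hydrochloride at 0.125 mg/kg, or buffered saline (PBS). NM alkylates DNA and joins its strands, and in the lung it is a vesicant. The 9 libraries form 3 groups of 3 biological replicates, numbered 0, 1 and 2: PBS (labelled day 0), NM day 1 and NM day 28. The study's title concerns foam cells, macrophages filled with lipid, in the lung fibrosis that follows NM. The ages of the rats, the day on which PBS animals were sampled, any pooling of animals and any sorting of the cells are not stated in the labels.

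Macrophages take up lipid by several routes. Scavenger receptors bind oxidised or otherwise modified lipoproteins without being shut down by the cholesterol they bring in, which is why they are tied to foam cell formation in the artery wall. Class B receptors (Cd36, Scarb1, Scarb2) are hairpin proteins with a membrane anchor at each end, class A receptors (Msr1) form trimers with a collagen-like stalk, and Olr1 is a C-type lectin. In the lung's air spaces the lipid at hand is mainly surfactant, and alveolar macrophages clear much of it.

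The values are FPKM (fragments scaled by transcript length and by library size), which are per length, so levels can be set side by side between genes. Absolute depth is not recoverable from them. Relative depth, read from the most common ratio of values under 1 FPKM, ran from 1.42 to 2.58 in PBS, from 1 to 1.47 at NM day 1 and from 1.04 to 1.13 at NM day 28, relative to NM day 1 replicate 0. Spearman's rho across the 9885 genes tested lay between 0.953 and 0.982 within groups and between 0.917 and 0.956 across them. Among resident macrophage markers, Mrc1, Pparg, Fabp4 and Abcg1 stood above 100 FPKM in every library, and Siglec1 ran from 20.6 to 60.4 FPKM. Car4 was at 0, 0.155 and 0.609 FPKM in PBS replicates 0, 1 and 2, and at 2.50 FPKM or more in the NM libraries. Marco, a class A scavenger receptor usual in alveolar macrophages, was listed at 0 in all 9. An exact 0 in such a table can be a failed estimate, and no absence is read from it; Sftpd was also listed at 0, beside Sftpc at 26.3 FPKM or more.

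All 9 genes were detected in every library, the lowest value being 5.70 FPKM for Vldlr at NM day 28. Cd68, a lysosomal glycoprotein used as a macrophage marker, was the highest of the 9 in 9 of 9 libraries, with a mean over all libraries of 953.9 FPKM, place 124 of 17109 genes. Lpl (155 FPKM), Lrp1 (146.5 FPKM) and Cd36 (131 FPKM) followed. Their ranges over the libraries overlapped, and Lpl exceeded Lrp1 in 6 of 9 libraries. Olr1 (77.5), Msr1 (68.0) and Scarb2 (59.2 FPKM) formed a next tier that likewise overlapped. Scarb1 (21.2 FPKM) lay below Scarb2 in 9 of 9 libraries without overlap, and Vldlr (11.8 FPKM) was the lowest in 7 of 9.

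The promoters of the most and least abundant receptor show how unlike their start regions are, and that of Cd36, the gene with the widest spread of the 9, is shown beside them. They are RefSeq sequences of the build GRCr8, from 250 bases before to 50 bases after the annotated start, each on the gene's own strand. The table held a promoter for 6 of the 9 genes (Cd36, Olr1, Scarb2, Cd68, Vldlr and Lrp1), and those of Msr1, Scarb1 and Lpl were not analysed here. Capitals mark matches on either strand. The motifs searched were the nuclear receptor motif AGGTCA, the core promoter motif TATAAA, the NF-Y motif CCAAT, the motif GGGCGG of Sp factors, and the AP-1 motif TGACTCA. No matches overlapped each other.
Cd68 (chr10:54882392-54882691, minus strand): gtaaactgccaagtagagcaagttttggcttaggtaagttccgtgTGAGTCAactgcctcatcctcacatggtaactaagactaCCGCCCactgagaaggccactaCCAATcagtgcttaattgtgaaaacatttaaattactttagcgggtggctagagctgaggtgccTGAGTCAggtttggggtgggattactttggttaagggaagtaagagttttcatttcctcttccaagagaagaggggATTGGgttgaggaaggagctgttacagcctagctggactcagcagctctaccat
Cd36 (chr4:18246332-18246631, plus strand): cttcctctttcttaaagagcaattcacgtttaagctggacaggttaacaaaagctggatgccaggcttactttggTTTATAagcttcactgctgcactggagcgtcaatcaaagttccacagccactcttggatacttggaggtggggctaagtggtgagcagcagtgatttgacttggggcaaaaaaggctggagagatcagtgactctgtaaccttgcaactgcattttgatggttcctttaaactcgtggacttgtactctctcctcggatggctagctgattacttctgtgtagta
Vldlr (chr1:234240436-234240735, plus strand): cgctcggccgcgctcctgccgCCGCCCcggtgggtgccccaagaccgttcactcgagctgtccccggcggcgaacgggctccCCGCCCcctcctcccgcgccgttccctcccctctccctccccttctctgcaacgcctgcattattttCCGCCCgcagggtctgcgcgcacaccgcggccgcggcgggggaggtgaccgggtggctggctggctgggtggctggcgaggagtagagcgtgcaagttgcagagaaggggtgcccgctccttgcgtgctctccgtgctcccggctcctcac

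Cd68 held TGACTCA at 2 places, a motif found in 4.63% of the 33469 promoters of this length, and its window was 46.7% G or C. Vldlr held GGGCGG at 3 places, where 33.1% of all promoters hold at least 1, and its window was 73.0% G or C against a median of 51.7% for all promoters. Cd36 held a single match, TATAAA (14.2% of all promoters), on the strand opposite to the gene. Scarb2, also of class B, was unlike it, with 69.7% G or C, a GGGCGG and no TATAAA. Of the 6 promoters AGGTCA (16.2% of all) was in that of Olr1, and none held 2 copies of it with 1 or 4 bases between (0.0538% and 0.00598% of all). Such matches describe letters and say nothing of binding.

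Scarb1 was the gene of the 9 that passed the test, and it did so at day 28. Scarb1 (SR-B1) binds high-density lipoprotein and carries cholesterol both into and out of cells. It measured 19.6, 14.5 and 15.9 FPKM in PBS replicates 0, 1 and 2, 16.2, 14.9 and 15.4 at NM day 1, and 35.8, 25.6 and 32.9 at NM day 28. Each day 28 library lay above each of the other 6, and the PBS and day 1 libraries overlapped. The day 28 mean of 31.4 ± 5.29 FPKM (SD, n = 3) was 1.89 times the PBS mean of 16.7 ± 2.65 and 2.02 times the day 1 mean of 15.5 ± 0.629.

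By limma, fitted across all 9885 genes with Benjamini-Hochberg adjustment, Scarb1 rose against PBS by 0.87 on the log2(FPKM + 1) scale (SE 0.18, 95% interval 0.48 to 1.27, adjusted p = 0.0141). Against NM day 1 it rose by 0.96 (SE 0.18, 95% interval 0.57 to 1.35, adjusted p = 0.00581). The difference between NM day 1 and PBS was -0.09 (95% interval -0.48 to 0.31, adjusted p = 0.817 by limma). The call against PBS ended without PBS replicate 1 (adjusted p = 0.0807), without NM day 28 replicate 0 (0.056) or without NM day 28 replicate 2 (0.0531), with 2 libraries left in that group, and the call against NM day 1 passed in 20 of 20 alternatives (highest adjusted p = 0.0273).

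In all, 1 of 9 genes passed the test at day 28 against PBS, where 7.04% of all genes tested did (3.07% higher, 3.98% lower). Likewise 1 of 9 passed at day 28 against day 1, where 11.6% of all genes did (4.75% higher, 6.88% lower). At day 1 against PBS 0 of 9 passed by limma, where 9.86% of all genes did (5.28% higher, 4.58% lower). By the same fit 1 of the 9 (Lpl) had an unadjusted p under 0.05 at day 1, beside 25.3% of all genes tested. At day 28 it was 5 of 9 against PBS and 2 of 9 against day 1, beside 23.9% and 26.9% of all genes tested. The median log2 fold change of the 9 was -0.29 at day 1 and -0.35 at day 28, both against PBS, against -0.04 over all genes tested in either comparison. Both comparisons use the same PBS libraries. The day 1 median depended on scaling. After quantile normalisation the middle value of the 9 at day 1 was -0.097 (Scarb1), against -0.055 over all genes tested. Cd36, Msr1, Olr1 and Cd68 then lay above 0. In bulk RNA, fewer cells of a type and less RNA per cell cannot be told apart.

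**Figure D1:**
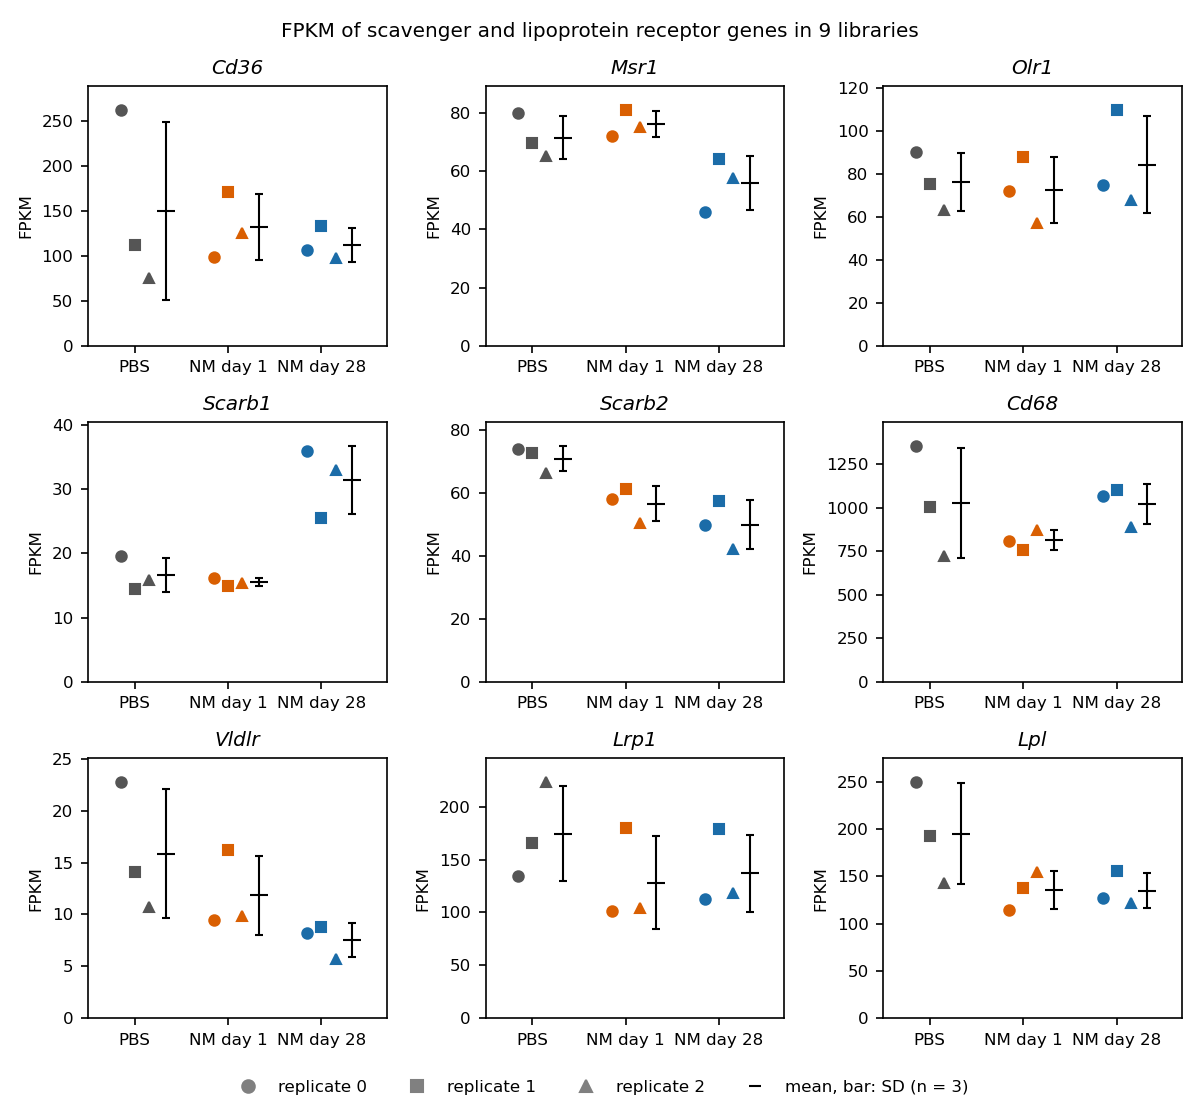
FPKM (linear axes from 0) of the 9 genes in each library, with a symbol for each replicate and the group mean ± SD (n = 3) in black. Scarb1 at NM day 28 (25.6 to 35.8 FPKM) lies clear of the other 2 groups, whereas PBS values of Cd36 spread from 75.5 to 262 FPKM.

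**Figure D2:**
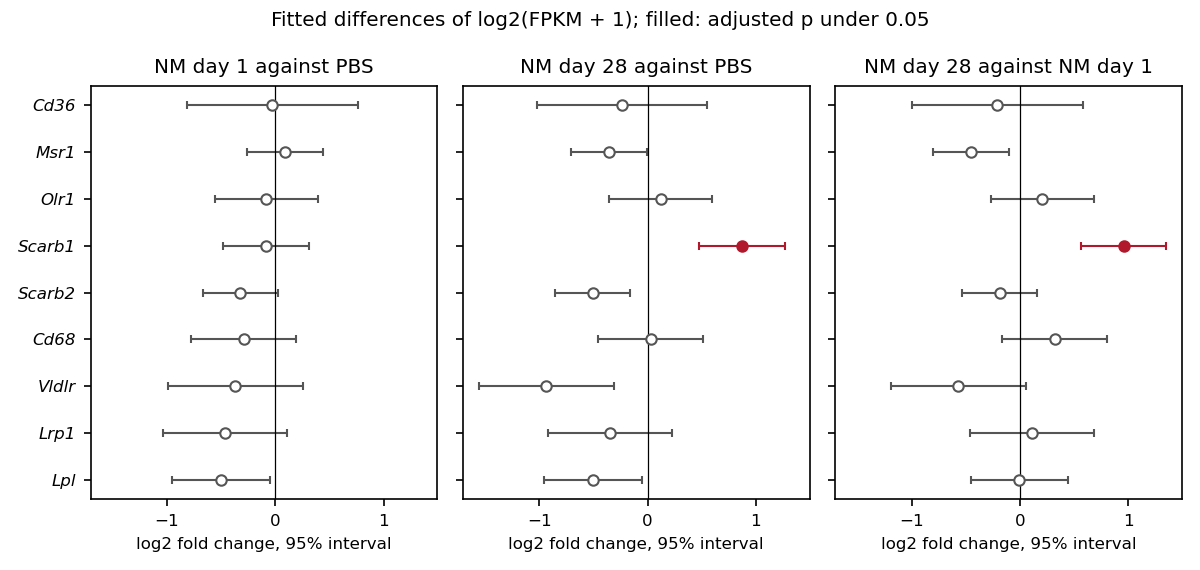
Fitted log2 fold changes of the 9 genes in each comparison, on the log2(FPKM + 1) scale, with 95% intervals. Filled red points passed an adjusted p of 0.05: Scarb1 at day 28 against PBS (0.87) and against NM day 1 (0.96).

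Ratios inside a library do not depend on how libraries are scaled to each other. Scarb1 over Scarb2 was 0.265, 0.199 and 0.239 in PBS, 0.278, 0.244 and 0.305 at NM day 1, and 0.716, 0.443 and 0.779 at NM day 28. The day 28 ratios stood above the other 6 with no overlap. Each day 28 library already had more Scarb1 and less Scarb2 than any PBS library. The separation of this ratio from PBS therefore had to follow and is no further support. That from NM day 1 had to follow too, given the ranges of each gene. Scarb1 was at 14.95 to 16.19 FPKM at day 1 and at 25.55 to 35.83 FPKM at day 28. Scarb2 was at 50.63 to 61.35 FPKM and 42.18 to 57.68 FPKM. Scarb1 over Cd68 ran from 0.0144 to 0.0219 in PBS, from 0.0177 to 0.020 at day 1 and from 0.0232 to 0.0369 at day 28. The day 28 values again did not overlap the others, and their separation from day 1 likewise followed from the ranges of both genes. Scarb1 over Cd36 did overlap, since the lowest day 28 value (0.193) was under the highest PBS value (0.21). These ratios show unequal change of a pair of genes and do not say which of them moved.

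**Figure D3:**
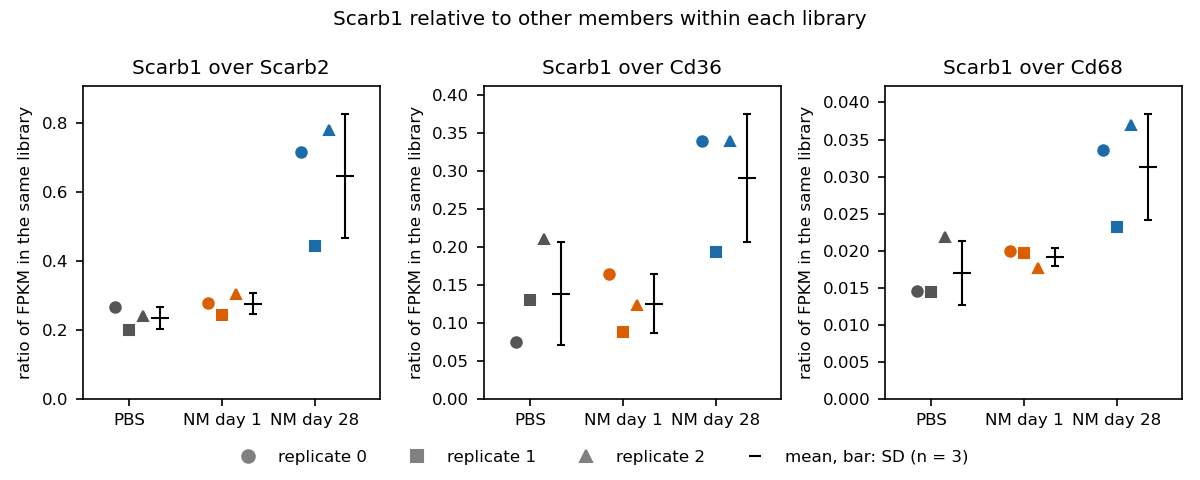
FPKM of Scarb1 divided by that of Scarb2, Cd36 or Cd68 in the same library (linear axes from 0), with the mean ± SD of each group (n = 3) in black. The day 28 ratios to Scarb2 (0.443 to 0.779) exceed those of the 6 other libraries (0.199 to 0.305). This had to follow from the levels of Scarb1 and Scarb2 and is no further support.

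The other class B receptors did not pass. Cd36, a receptor for oxidised lipoproteins that also takes up long-chain fatty acids, measured 262, 112 and 75.5 FPKM in PBS, 98.2, 171 and 125 at NM day 1, and 106, 133 and 97.0 at NM day 28. All 3 groups overlapped, and the PBS libraries alone spanned 3.48-fold. Its residual SD over all groups was 0.589 on the log2 scale, larger than in 94.4% of the genes tested. The log2 fold change against PBS was -0.03 at day 1 (95% interval -0.81 to 0.76) and -0.23 at day 28 (-1.02 to 0.55; adjusted p = 0.974 and 0.746 by limma). Without PBS replicate 0 these became 0.47 and 0.27, neither of which passed. The intervals hold changes in either direction, so a moderate change of Cd36 was not detectable here. Cd36l1, which neighbours Cd36 in the GRCr8 annotation, was at 8.57 to 25.0 FPKM. Its symbol is also an older synonym of Scarb1, and rows were matched by RefSeq transcript accession, so it is a row apart from Scarb1. How reads matching both Cd36 and Cd36l1 were assigned is not given in the sources used here.

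Scarb2 (LIMP-2) is a lysosomal membrane protein that delivers glucocerebrosidase to lysosomes. Its values were 74.0, 72.7 and 66.3 FPKM in PBS, 58.2, 61.3 and 50.6 at NM day 1, and 50.03, 57.7 and 42.2 at NM day 28. The PBS libraries lay above all 6 NM libraries. The log2 fold change was -0.32 at day 1 (95% interval -0.67 to 0.02, adjusted p = 0.228 by limma) and -0.51 at day 28 (-0.85 to -0.17, adjusted p = 0.0751), so neither difference passed. At day 28 it did pass with library weights (adjusted p = 0.0218) and without NM day 28 replicate 1 (0.0344).

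Msr1, the class A receptor, was even among PBS and day 1 libraries and lower in those of day 28. It measured 80.0, 69.7 and 65.3 FPKM in PBS, 72.3, 81.3 and 75.2 at NM day 1, and 46.0, 64.4 and 57.8 at NM day 28. The day 28 libraries lay below the other 6, and PBS and day 1 overlapped. Neither the log2 fold change of -0.36 against PBS (95% interval -0.71 to -0.01, adjusted p = 0.202 by limma) nor that of -0.45 against NM day 1 (-0.80 to -0.10, adjusted p = 0.094) passed. The second did after quantile normalisation (adjusted p = 0.0461), with library weights (0.0228) and without NM day 28 replicate 1 (0.0423).

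Olr1 (LOX-1), the lectin-like receptor for oxidised LDL, showed no such separation. It read 90.2, 75.2 and 63.3 FPKM in PBS, 71.8, 87.8 and 57.1 at NM day 1, and 74.8, 110 and 67.7 at NM day 28, with all groups overlapping. Its log2 fold changes against PBS were -0.08 at day 1 (95% interval -0.56 to 0.39) and 0.12 at day 28 (-0.35 to 0.60; adjusted p = 0.856 and 0.785 by limma). Cd68 read 1355, 1005 and 724 FPKM in PBS, 808, 759 and 873 at NM day 1, and 1067, 1103 and 891 at NM day 28. The day 28 libraries lay above those of day 1, but the log2 difference of 0.32 (95% interval -0.16 to 0.81) did not pass (adjusted p = 0.391 by limma).

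Of the LDL receptor family, Vldlr had the largest fitted difference from PBS among the 9 genes, though it did not pass. Vldlr binds triglyceride-rich lipoproteins that carry apolipoprotein E. Its values were 22.8, 14.1 and 10.7 FPKM in PBS, 9.45, 16.3 and 9.84 at NM day 1, and 8.20, 8.77 and 5.70 at NM day 28. The day 28 libraries were below all others, and the PBS and day 1 libraries overlapped. The day 28 mean was 0.476 of the PBS mean, with a log2 fold change of -0.94 (95% interval -1.56 to -0.31, adjusted p = 0.072 by limma). The difference passed with library weights (adjusted p = 0.0249) and without PBS replicate 2 (0.0425), and it ranged from -1.17 to -0.66 when single libraries were left out. At day 1 the value was -0.37 (95% interval -0.995 to 0.25, adjusted p = 0.462 by limma).

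Lrp1, a large endocytic receptor for many ligands including remnant lipoproteins and protease complexes, measured 135, 165 and 223 FPKM in PBS, 101, 179 and 104 at NM day 1, and 113, 179 and 119 at NM day 28. Replicate 1 was the highest of both NM groups, and all groups overlapped. The log2 fold changes against PBS were -0.46 at day 1 and -0.35 at day 28 (95% intervals -1.03 to 0.11 and -0.92 to 0.22; adjusted p = 0.3 and 0.463 by limma).

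Lpl, the secreted lipase that frees fatty acids from lipoprotein triglyceride at the cell surface, was the only gene of the 9 that is an enzyme rather than a receptor or membrane protein. It measured 250, 193 and 143 FPKM in PBS, 114, 138 and 154 at NM day 1, and 127, 156 and 121 at NM day 28. PBS replicate 2 lay within the range of both NM groups. The log2 fold changes against PBS were close to each other, -0.50 at day 1 (95% interval -0.95 to -0.05, adjusted p = 0.154 by limma) and -0.50 at day 28 (-0.96 to -0.05, adjusted p = 0.162). The day 1 difference passed without PBS replicate 2 (adjusted p = 0.0483), and the day 28 difference with library weights (0.0443).

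Groups did not overlap for 1 of 9 genes at day 1 against PBS (Scarb2) and for 4 of 9 at day 28 against PBS (Scarb1 above, Msr1, Scarb2 and Vldlr below). Of all genes tested 33.3% did not overlap at day 1 (15.2% higher, 18.1% lower) and 27.1% at day 28 (12.7% higher, 14.4% lower). Between the NM days this held for 4 of 9, with Scarb1 and Cd68 higher and Msr1 and Vldlr lower at day 28, beside 30.8% of all genes tested (15.1% higher, 15.7% lower).

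Single libraries moved most of the 9 genes together. PBS replicate 0 was the highest of its group for 8 of 9, all but Lrp1, while it was highest for 33.8% of all genes tested. PBS replicate 2 was the lowest for 7 of 9, against 41.7% of all genes. NM day 28 replicate 1 was the highest of its group for 8 of 9, against 39.1% of all genes, and for the remaining gene, Scarb1, it was the lowest. NM day 1 replicate 1 was the highest of its group for 6 of 9, against 36.0% of all genes. NM day 28 replicate 2 was the lowest for 6 of 9, against 30.3%. PBS replicate 0 also had the greatest relative depth (2.58) and the most Fabp4, a fatty acid carrier, at 927 FPKM against 401 and 172 in the other PBS libraries. The part of these library differences in the results above was not tested beyond leaving each library out.

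Across the 9 libraries, Scarb2 and Vldlr were the most alike pair of the set, with a Pearson r of 0.855 of log2(FPKM + 1), and Msr1 and Scarb1 the most opposed, with r = -0.823. Among 7808 other genes with a mean of at least 5 FPKM, Scarb1 was most like Sh3glb1 (r = 0.975), Pigp (0.966) and Plpbp (0.964). Pigp averaged 77.8, 66.3 and 143 FPKM in PBS, NM day 1 and NM day 28. Vldlr was most like B2m (0.953), Sumf1 (0.95) and Rhov (0.949), and Scarb2 most like Ppfia4 (0.961), Tgoln2 (0.938) and Fgl2 (0.937). Msr1 paired best with Pnrc1 and Atad1 (both 0.966), Lpl with Gpr18 (0.966), Lrp1 with Slc30a7 (0.982), Cd68 with Hsd17b4 (0.961), Olr1 with P2ry10b (0.944) and Cd36 with Cd53 (0.95). The libraries share groups and scaling, and each r is a description over 9 points, picked for its high place among 7808 genes or among the pairs within the set.

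Other scavenger receptors were mostly at low values. Of 12 such genes in the table, 4 passed the filter of at least 1 FPKM in 3 libraries (Scarf1, Cd163, Cxcl16 and Ager). Cxcl16 was not low, at 32.1 ± 7.57 FPKM in PBS, 50.3 ± 9.47 at day 1 and 48.3 ± 3.12 at day 28 (SD, n = 3). All its NM libraries lay above its PBS libraries. Neither difference from PBS passed (log2 fold changes 0.64 and 0.60, adjusted p = 0.0541 and 0.082 by limma). Scarf1 (20.9, 15.8 and 18.8 FPKM in the same order) did not pass either. Cd163, the haemoglobin-haptoglobin receptor, measured 1.105, 2.03 and 4.72 FPKM at NM day 1 and was listed at 0 in the other 6 libraries, so it passed the filter only through that group and its difference is not counted as a result. Ager, a receptor for glycated proteins that is abundant in type I alveolar epithelium, was the other gene called, and rose from 12.4 ± 3.24 FPKM in PBS to 31.5 ± 11.2 at day 1 (SD, n = 3; adjusted p = 0.0214 by limma) and measured 14.6 ± 3.92 at day 28. With Cd163, 2 of 4 were called higher at day 1 and 2 of 4 lower between the NM days, beside 5.28% and 6.88% of all genes tested. At day 28 against PBS 0 were called by limma, beside 7.04% of all genes. The medians of the 4 were 0.94 at day 1 against PBS, 0.11 at day 28 against PBS and -0.53 between the NM days. Cd163 is held in these counts and medians, so they are partly set by the filter. The call of Ager at day 1 ended in 3 of 20 alternatives, that of day 28 against day 1 (adjusted p = 0.0425) in 10. The summed level of 14 alveolar epithelial markers was 1030 to 3070 FPKM at day 1, against 232 to 400 in PBS and 268 to 377 at day 28. Its part in the Ager values was not tested.

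In the LDL receptor family outside the set, 9 of 10 genes in the table were tested, and Lrp5, a Wnt co-receptor, was the 1 that passed, against PBS at both days. The share of all genes tested that were lower was 4.58% at day 1 and 3.98% at day 28. The median log2 fold changes of the 9 were -0.20 at day 1 against PBS, -0.17 at day 28 against PBS and -0.10 between the NM days, where all genes tested had -0.04, -0.04 and -0.00. Lrp5 fell from 24.9 ± 2.16 FPKM in PBS to 13.4 ± 3.13 at day 1 and 12.2 ± 3.05 at day 28 (SD, n = 3; log2 fold changes -0.87 and -1.0, adjusted p = 0.028 and 0.0178 by limma). Leaving out single libraries ended these calls in 5 and 3 fits (adjusted p up to 0.134 and 0.0847).

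Among partners, cofactors and regulators of the 9 genes, 10 of 19 in the table were tested, 2 fell at day 1 and 0 passed at day 28 by limma, beside 4.58% of all genes lower at day 1 and 7.04% called at day 28. The medians of the 10 were -0.20, -0.18 and 0.15 in the same order of comparisons. Sort1 (sortilin), a sorting receptor that binds Lpl and other ligands, fell from 255 ± 19.7 to 129 ± 22.2 FPKM at day 1 (SD, n = 3; log2 fold change -0.995, adjusted p = 0.00515 by limma), a call held in 20 of 20 alternatives. At day 28 Sort1 stood at 165 ± 27.6 FPKM, with each library below each PBS library. Its log2 fold change against PBS of -0.64 did not pass (adjusted p = 0.0509 by limma), nor did the difference between the NM days (adjusted p = 0.217). Lmf2, related to the lipase maturation factor, fell at day 1 from 52.7 ± 4.36 to 31.6 ± 6.74 FPKM (adjusted p = 0.0262 by limma), a call lost in 4 of 20. Gpihbp1, the endothelial anchor of Lpl, was at 0.0646 FPKM in 1 library and listed at 0 in the other 8, and the Lpl inhibitor Angptl4 (9.53 to 25.8 FPKM) did not pass.

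Of 13 genes that handle lipid after uptake, all tested, 2 fell at day 1, 1 fell at day 28, and between the NM days 2 were higher and 2 lower at day 28. Of all genes tested 4.58% fell at day 1, 3.98% fell at day 28, and 4.75% were higher and 6.88% lower between the NM days. The medians of the 13 were -0.36, -0.18 and 0.29. Pparg, a nuclear receptor that activates Cd36 and Fabp4, fell from 177 ± 2.78 FPKM in PBS to 120 ± 18.3 at day 1 (SD, n = 3; adjusted p = 0.0315 by limma) and stood at 183 ± 8.73 at day 28 (adjusted p = 0.0192 against day 1). Nr1h3, which encodes the oxysterol receptor LXR alpha, fell at day 1 by 0.73 on the log2 scale (adjusted p = 0.0386 by limma). Slc27a4, a fatty acid transport protein, fell from 37.3 ± 2.10 to 24.2 ± 3.21 FPKM at day 28 (adjusted p = 0.0343). At day 28 against day 1 Npc1, which exports cholesterol from lysosomes, was higher (0.69 on the log2 scale), and Fabp3 (-1.03) and Slc27a3 (-1.60) were lower (adjusted p = 0.0497, 0.0456 and 0.00672 by limma).

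Of these calls that of Slc27a3 held in 19 of 19 alternatives, whereas those of Pparg (8 of 20 at day 1, 4 of 20 between the NM days), Nr1h3 (10 of 20), Slc27a4 (7 of 20), Npc1 (16 of 20) and Fabp3 (13 of 19) ended in some (adjusted p up to 0.171, Npc1 without NM day 1 replicate 0). Lipa, the lysosomal acid lipase, Npc2, Fabp4, Soat1 and Acsl1 did not pass in any of the 3 comparisons.

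**Figure D4:**
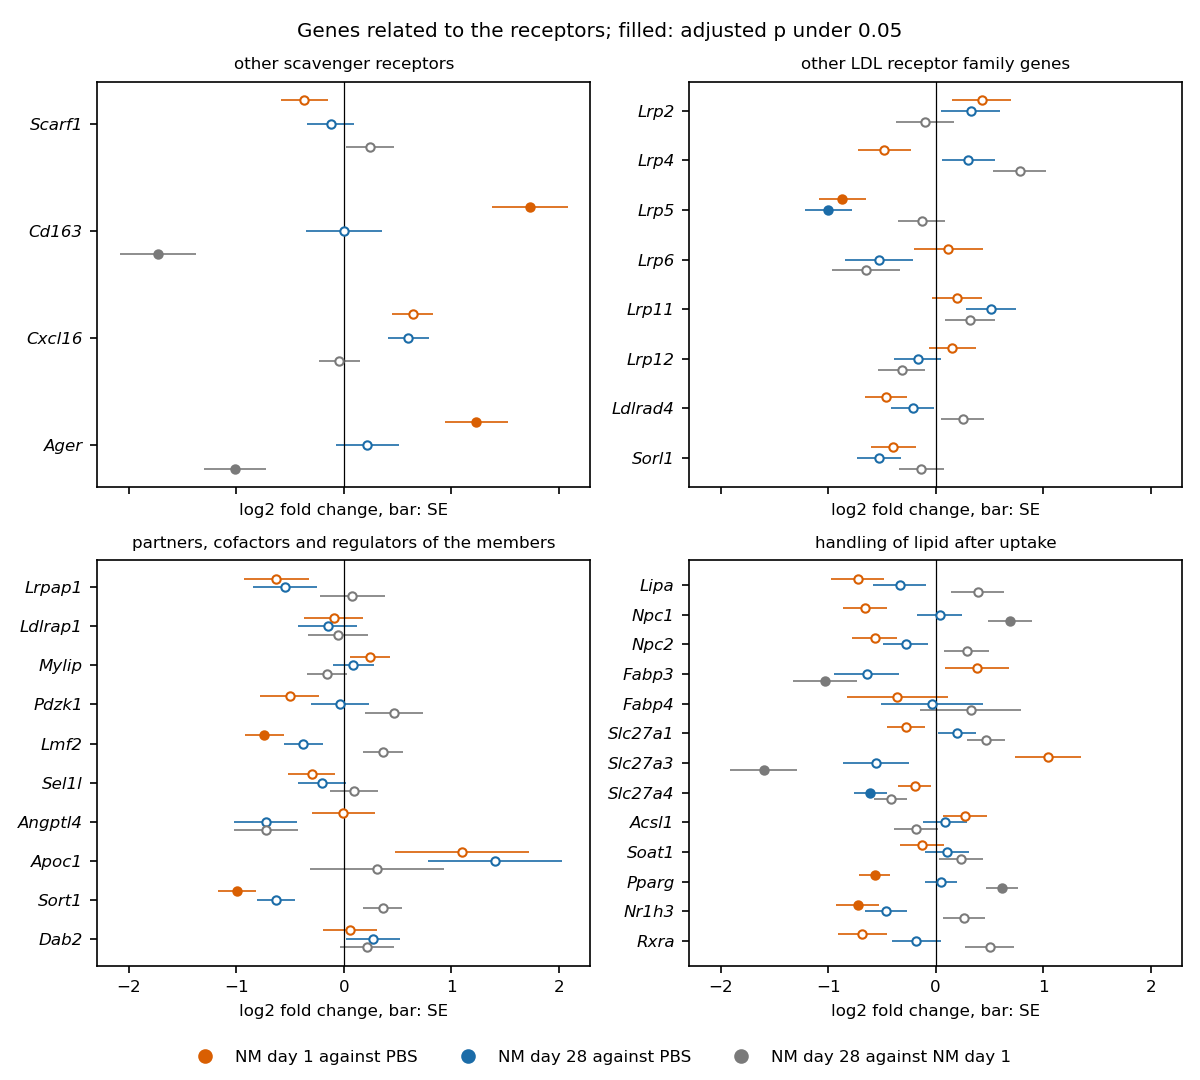
Fitted log2 fold changes (log2(FPKM + 1) scale, bars SE) of tested genes in 4 lists related to the receptors, in the 3 comparisons, with 1 gene of the LDL receptor family left out. Filled points passed an adjusted p of 0.05 (Cd163 entered only through its day 1 values); Sort1 (-0.995) and Lrp5 (-0.869) at day 1 lie left of 0, and Pparg lies right of 0 at day 28 against day 1 (0.615).

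Markers of other cells moved with the NM groups, and their levels stand beside the Scarb1 result. Neutrophil markers summed to 72.5 to 107 FPKM in PBS, 532 to 906 at day 1 and 211 to 723 at day 28, with 5 and 4 of 7 tested genes higher than PBS, beside 5.28% and 3.07% of all genes tested. The largest part of each PBS sum was Camp (61.5, 56.8 and 31.4 FPKM). Camp (log2 fold changes -0.36 and -0.65 at days 1 and 28) and Ngp (-0.31 and -0.65) went the other way, and neither passed. Markers of monocytes and recruited macrophages were higher than PBS in 6 of 10 at day 1 and 2 of 10 at day 28 (Itgam among them), and their sums ran from 1210 to 2080, 1360 to 1700 and 721 to 1470 FPKM. S100a4 alone made up 81.9% or more of each sum, and without it the sums were 59.2 to 76.5 FPKM in PBS, 154 to 208 at day 1 and 81.5 to 131 at day 28. T and natural killer cell markers, of which 4 of 7 and 1 of 7 were higher than PBS, summed to 14.3 to 18.3, 87.4 to 93.7 and 14.1 to 20.0 FPKM. Of 13 alveolar epithelial markers 8 were higher at day 1; at day 28 Hopx was higher and Krt18, Krt19 and Aqp5 lower. Some of these markers passed the filter only through the group in which they were called, namely Retnlg, Ccr2, Ly6c, Cdh1, Slc34a2 and Lamp3 at day 1 and Ncr1 at day 28, so the counts that hold them are partly set by the filter.

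Among 8 endothelial markers Cdh5 stayed under 1 FPKM and Cldn5 was listed at 0, while Tie1 rose from 7.21 ± 3.52 FPKM in PBS to 34.4 ± 2.28 at day 28 (SD, n = 3; adjusted p = 0.000952 by limma). At day 28 Pecam1 had a log2 fold change of -0.67 and Vwf of -0.79 against PBS (adjusted p = 0.0539 and 0.0945 by limma). Plvap was called at day 1 (3.62 ± 0.982 FPKM, SD, n = 3) but passed the filter only through that group. The endothelial sums were 46.6 to 49.6 FPKM in PBS, 48.7 to 63.9 at day 1 and 53.1 to 65.9 at day 28. Of 8 fibroblast and adipocyte markers the others stayed under 1 FPKM beside Cfd, which macrophages can express; Pdgfra was listed at 0. Erythroid and platelet markers, 0 of 5 called by limma in each comparison, summed to 447 to 1760 FPKM in PBS and 353 to 633 in the NM libraries. Resident macrophage markers summed to 1240 to 2050, 903 to 1170 and 1030 to 1200 FPKM, with Car4 higher than PBS at both days, Abcg1 lower at both, Pparg lower at day 1 and Mrc1 lower at day 28. The part of any of these cells in the Scarb1 difference was not tested.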

How the data were processed

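RNA from 9 libraries (3 per group) was prepared with TruSeq and sequenced as paired ends, per the labels' protocols. The authors deposited FPKM per RefSeq transcript; the submitters' processing notes name TopHat, Cuffdiff and the build rn4, with versions and settings not given in the sources used here, so how fragments were shared between isoforms or near-copies is unknown. Of 18197 transcript rows 17189 (94.46%) matched a symbol in the RefSeq table; unmatched rows were kept under their own identifier where tested. Transcripts were summed per gene. Genes with at least 1 FPKM in at least 3 libraries (9885) were tested on log2(FPKM + 1), computed from the deposited FPKM, with limma 3.58.1 in R 4.3.3 (a mean per group over all 9 libraries, trended moderation, two-sided), Benjamini-Hochberg adjustment over all genes and a threshold of 0.05. A fold on this scale understates changes of low genes. P-values set each group difference against the spread between libraries of the same group, moderated across genes. Whether that spread is between single animals or pools is not stated.

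The 9 genes and the related lists were chosen with earlier results of these data known. Named genes are the 9, the called genes of each related list (at most 4 per list and comparison, by smallest p), the 3 genes most like each of the 9, and the most abundant marker of each cell list; other markers, Scarf1, Cxcl16, Gpihbp1, Angptl4, Lipa, Npc2, Fabp4, Soat1, Acsl1 and Cd36l1 were named after their values were seen. Alternatives changed the pseudocount (0.1 or 5), the filter (none, or 5 FPKM), scaling, isoform summing, the libraries fitted, moderation and library weights, added a replicate block, or left out each library. In simulated data with 200 of 9885 genes changed, the fit called 1.49% to 8.96% of genes changed by 0.5 on the log2 scale. It called 40.3% to 52.2% of those changed by 1 and 86.4% to 93.9% of those changed by 2, across the 3 comparisons. More genes were called in the data than were changed there, so these shares need not carry over. A difference that did not pass, in any of the 9 genes, may still be a real change of moderate size. Single values of some list genes are not reported here.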

Additional observations from a re-analysis of the deposited data

Results flagged for a closer look

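Scarb1 differed between the NM days. Its log2 fold change against PBS was 0.96 higher at day 28 than at day 1, which is the direct comparison of the NM groups (limma, Benjamini-Hochberg adjusted p = 0.00581, higher in 3 of 3 day 28 libraries than in any day 1 library). For Msr1 the libraries lay on opposite sides: every day 1 library lay above the PBS mean and every day 28 library below it, a difference of -0.449 on the log2 scale. The direct test of that difference did not pass (adjusted p = 0.094 by limma). The lowest day 1 library (72.31 FPKM) was close to the PBS mean (71.65 FPKM), and the day 1 and PBS libraries overlapped. Neither the Msr1 change against PBS at day 1 (0.09, adjusted p = 0.775 by limma) nor that at day 28 (-0.36, adjusted p = 0.202) passed, so opposite effects are not shown.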

How the results depend on the processing

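Over 20 alternatives and 3 comparisons, 504 of 540 fold changes of the 9 genes kept their direction and their side of the threshold, 9 passed newly, 3 calls were lost and 24 changed sign, none of the latter called either way. In many of these settings the direction could not change. The filters, single isoforms, the replicate block, moderation and leaving out libraries of the group not compared left the fold changes themselves as they were. Such settings could only move the adjusted p, so the count of 504 does not measure how stable the directions are. The number of the 9 called ranged from 0 to 1 at day 1 against PBS, from 0 to 2 at day 28 against PBS and from 1 to 2 between the NM days when single libraries were left out; it was 4 at day 28 against PBS with library weights (whose estimation gave a convergence warning), and 2 between the NM days with library weights or quantile normalisation. Same-numbered samples did not all deviate together (r from -0.104 to 0.196 over 9 pairs, 3 of them over 0.1), so the numbers are not taken to pair them. The replicate block gave 0, 1 and 1 and changed no call among the 9, but ended those of Pparg and Nr1h3 at day 1, Slc27a4 at day 28, and Ager and Fabp3 between the NM days (adjusted p from 0.0507 to 0.0597). Signs changed at day 1 against PBS for Cd36 with median-of-ratios scaling (0.009) and, with quantile normalisation, for Cd36 (0.181), Olr1 (0.08) and Cd68 (0.037), and at day 28 with library weights for Olr1 (-0.057) and Cd68 (-0.088). Leaving out single libraries moved the values across 0 at day 1 for Cd36 (-0.417 to 0.474), Olr1 (-0.234 to 0.072) and Scarb1 (-0.175 to 0.031), at day 28 for Cd36 (-0.625 to 0.267), Olr1 (-0.083 to 0.261) and Cd68 (-0.2 to 0.252), and between the NM days for Lrp1 (-0.094 to 0.382) and Lpl (-0.121 to 0.097); the cause was not tested. Over all genes the share called ranged from 3.22% to 14.1%, 2.74% to 11.7% and 6.4% to 20.3%, lowest without NM day 1 replicate 0, PBS replicate 1 and NM day 1 replicate 1. Absolute depth is unknown, so no counting error can be given.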
